A study of Coturnix japonica with 24 samples.

Results

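The genes described here encode the translation initiation and elongation factors of the Japanese quail, Coturnix japonica: every gene whose symbol in the deposited tables began with EIF or EEF, with its transcripts summed. The rule found 58 genes of 17239 listed in the liver and adipose tables together, with 57 of 14983 genes in the liver table and all 58 of 15542 in the adipose table. EEF1A2 was listed in adipose tissue only. Messenger RNA was measured by Nanopore sequencing of PCR-amplified cDNA from male birds, in 12 liver and 12 abdominal white adipose libraries. The birds had been kept on long days of 16 hours of light and 8 of darkness. They were then given 8 hours of light a day (8L), 12 hours (12v) or 16 hours (16v), with 4 birds per group in each tissue. The labels name no genetic manipulation, and no age or length of exposure is used here. Each library came from 1 bird. Animal numbers paired 11 liver libraries with 11 adipose libraries of the same bird.

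Initiation starts when eIF2 carries the initiator transfer RNA to the small ribosomal subunit, held there by eIF3, while the eIF4 group binds the cap of the messenger and unwinds it. eIF1, eIF1A and eIF5 then settle the start codon, and eIF5B joins the large subunit. In elongation eEF1A delivers each charged transfer RNA, the eEF1B subunits recharge eEF1A with GTP, and eEF2 moves the ribosome on to the next codon. Supply is adjusted by kinases that phosphorylate eIF2, by 4E-binding proteins that hold eIF4E, and by the kinase of eEF2. These roles are known mainly from mammals and yeast. In liver, protein synthesis for the plasma makes heavy use of the machinery.

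The total count per library was 72125 to 867217 in liver and 72716 to 1389063 in adipose tissue, and the 58 genes took 0.679 to 0.988% of it in liver and 0.761 to 1.38% in adipose tissue. The summed level of 12 hepatocyte markers was 83690 to 164400 CPM (counts scaled to a common library total) in liver, against 2048 to 21320 CPM in adipose tissue. The adipose sum was mostly APOA1, at 1711 to 20170 CPM, with TF at 116.9 to 1676 CPM. There ALB had a median of 6.63 CPM, VTN of 17.4 CPM and TTR, APOB, APOH, FGA, FGB, FGG and SERPINC1 of 0 CPM. AHSG was not listed there. The summed level of 10 adipocyte markers was 742.5 to 1502 CPM in liver, against 24900 to 61110 CPM in adipose tissue. The liver sum was mostly CD36, at 583 to 1374 CPM, with CFD at 8.76 to 435 CPM. FABP4 and ADIPOQ had a median of 0 CPM in liver, and PLIN1 was not listed there. By a score from the cytosolic ribosomal protein genes (their first principal component, higher where their level was higher), liver 12v replicates 1 and 3 and liver 16v replicate 1 stood apart at -6.90, -9.23 and -9.39, against -0.54 to 6.20 in the other liver libraries. Adipose 16v replicate 2 stood apart at -13.32, against -2.0 to 4.87 in the other adipose libraries. In bulk tissue, fewer cells of a type and less RNA per cell cannot be told apart.

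Enough counts for a test were present for 38 of the 57 genes listed in liver, for 47 of the 58 in adipose tissue and for 48 of 57 in the comparison of both tissues. The genes too sparse for every fit were EEF2KMT, EEFSEC, EIF2A, EIF2AK4, EIF2B1, EIF2B2, EIF2B5, EIF2D and EIF4EBP3, so that the kinase GCN2 (EIF2AK4) and 3 of the 5 subunits of the exchange factor eIF2B are not described further. In liver alone, EIF2AK1, EIF2AK2, EIF2B3, EIF2B4, EIF3G, EIF4E3, EIF4EBP2, EIF4ENIF1, EIF4G3 and EIF6 were also too sparse. In adipose tissue alone, EEF1AKMT1 and EIF6 were.

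The question of the photoperiod comparisons in liver was which of these genes differ between birds on 12 or 16 hours of light and birds on 8 hours. EEF2 came nearest to a call: it was lower in each 12v and 16v library than in any 8L library, but it did not pass. EIF4E2 and EIF3K followed in 16v against 8L, both with negative values that did not pass. Of the 38 tested genes, 0 passed the threshold (edgeR's quasi-likelihood test, Benjamini-Hochberg adjusted p under 0.05 over all tested genes) in 12v against 8L, where 0.331% of all 4532 tested genes passed. In 16v against 8L again 0 passed, where 0.794% of all tested genes did. At an unadjusted p under 0.05 there were 2 of 38 in 12v against 8L and 4 of 38 in 16v against 8L, or 5.26% and 10.5%, against 18.3% and 21.2% of all tested genes. DESeq2 called 1 gene in 12v against 8L and 3 in 16v against 8L, where it called 365 and 546 of all 4532 tested genes. With limma-voom 0 and 1 were called, and in 16v against 8L it called 219 of all 4532. The median log2 fold change of the 38 genes was 0.05 in 12v against 8L, beside -0.08 over all tested genes, and 0.10 in 16v against 8L, beside 0.07. Both comparisons share the 8L libraries, so their values are set side by side and not taken as a repeat of each other.

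EEF2, the factor that moves the ribosome along the messenger, had the smallest p of the 38 genes in both comparisons. In liver it had 265, 212, 244 and 165 CPM at 8L. It had 48.4, 65.4, 43.2 and 117 CPM at 12v. It had 50.4, 55.2, 69.0 and 81.4 CPM at 16v. All 8 libraries of the longer days were below all 4 of 8L. The log2 fold change was -1.65 ± 0.39 (SE, adjusted p = 0.0702) in 12v against 8L and -1.78 ± 0.38 (adjusted p = 0.0524) in 16v against 8L, so that neither passed. The call depended on the fit: over the alternatives run, the adjusted p in 16v against 8L lay between 6.88e-06 (DESeq2) and 0.201 (with the score of the ribosomal protein genes as a covariate). In 12v against 8L it lay between 0.000498 (DESeq2) and 0.319 (without the 3 liver libraries that stood apart). Without those 3 libraries the log2 fold change was -1.23 in 12v against 8L. It was -1.64 in 16v against 8L, with an adjusted p of 0.0404. With the score as a covariate the values were -1.26 and -1.37. The score itself was 2.83 to 6.20 at 8L, -9.23 to 2.92 at 12v and -9.39 to 1.4 at 16v. The summed hepatocyte markers were 126500 to 164400 CPM at 8L, 87810 to 148700 CPM at 12v and 83690 to 121400 CPM at 16v. ALB made the largest part of that sum, and the markers did not move as one. AHSG was at 1239 to 3083 CPM at 8L and 339 to 640 CPM at 16v. APOB rose from 477 to 673 CPM at 8L to 1194 to 1694 CPM at 16v, and FGB from 683 to 1290 CPM to 1419 to 4605 CPM. The part of the score or of the markers in the EEF2 values was not tested beyond the covariate. EEF2 is a single transcript in the tables, with 778 counts over the 12 liver libraries.

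**Figure D1:**
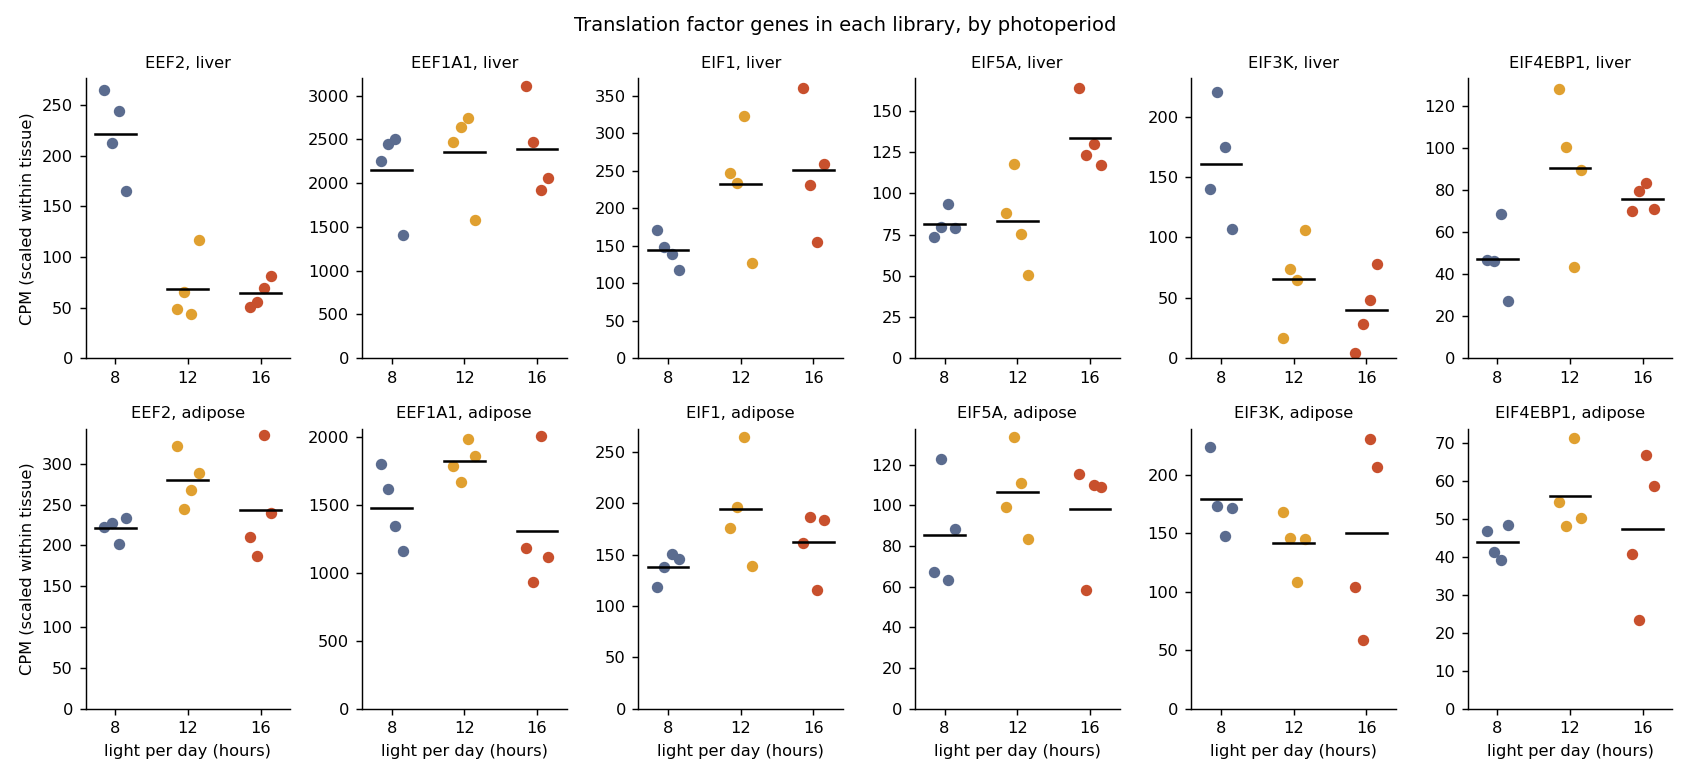
CPM of 6 translation factor genes in every liver library (upper panels) and adipose library (lower panels) by hours of light a day; points are libraries and bars are the means of 4. In liver the 12v and 16v points of EEF2 lie below all 8L points (highest 117 against lowest 165 CPM), while in adipose tissue its 12v points lie above the 8L points.

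The other elongation factors did not form one pattern. EEF1A1, which delivers charged transfer RNA, had 2250, 2444, 2500 and 1406 CPM at 8L, 2469, 2641, 2741 and 1578 CPM at 12v and 3112, 2465, 1920 and 2057 CPM at 16v. Its groups overlapped throughout, with log2 fold changes of 0.13 ± 0.32 and 0.15 ± 0.31. The eEF1B subunits had negative values: EEF1B2 had -0.67 ± 0.37 in 12v against 8L and -0.62 ± 0.37 in 16v against 8L. EEF1D had -0.81 ± 0.45 and -0.74 ± 0.45. EEF1G, the subunit that anchors the complex, had -1.49 ± 1.12 and -1.46 ± 1.09. None of these passed, their libraries overlapped between groups, and EEF1G was listed at 0 in liver 12v replicates 1 and 3 and liver 16v replicate 1, the libraries that stood apart. Once the score of the ribosomal protein genes entered the fit, EEF1B2 was at -0.09 in 12v against 8L and -0.06 in 16v against 8L, EEF1D at 0.05 and -0.02, and EEF1G at 0.13 and 0.82, so that directions turned there. Over the 38 genes, 8 signs turned with the score in the fit and 4 without the 3 libraries, in each of the 2 comparisons. EIF5A, which relieves ribosomes stalled on certain peptide bonds, had 164, 124, 130.3 and 117 CPM at 16v, against 73.5, 79.6, 93.8 and 78.8 CPM at 8L. All 4 of its 16v libraries were above all 4 of 8L, with a log2 fold change of 0.71 ± 0.34 and an adjusted p of 0.25. EEF2K, the kinase that inactivates eEF2, had 1.02 ± 0.94 and 0.62 ± 0.93. Of the 7 tested genes of elongation, which by symbol include EEF1E1 (at 0.55 and 0.48), 0 passed in either comparison. Their median log2 fold change was -0.67 in 12v against 8L and -0.62 in 16v against 8L, beside -0.08 and 0.07 over all tested genes. These medians include EEF1B2, EEF1D and EEF1G, whose values moved with the score in the fit as given above.

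Among the eIF3 subunits, EIF3K, a subunit of the complex's outer part, was the lowest relative to 8L. It had 140.4, 221, 175 and 107.4 CPM at 8L, 17.1, 74.1, 64.8 and 106.4 CPM at 12v and 4.38, 28.7, 48.2 and 78.0 CPM at 16v. Both longer-day groups lay below 8L in every library, at 12v by a narrow margin. The log2 fold change was -1.28 ± 0.68 in 12v against 8L (adjusted p = 0.335) and -1.99 ± 0.68 in 16v against 8L (adjusted p = 0.128). DESeq2 called EIF3K in 16v against 8L with an adjusted p of 0.022, and so did edgeR with 1 transcript per gene (adjusted p = 0.0412). Its lowest values were in liver 12v replicate 1 and liver 16v replicate 1, which stood apart. Without the 3 libraries EIF3K was at -0.78 in 12v against 8L and -1.59 in 16v against 8L, and with the score in the fit at -0.21 and -1.14. EIF3D, the subunit that can itself contact the cap, had 0, 15.4, 28.7 and 23.3 CPM at 16v, against 57.9, 53.0, 37.5 and 74.5 CPM at 8L. These groups did not overlap either, and the log2 fold change was -1.69 ± 0.85 (adjusted p = 0.279), or -0.77 with the score in the fit. EIF3A, the large scaffold subunit, had values of 1.17 ± 0.63 and 0.87 ± 0.61. These were 0.15 and 0.14 with the score in the fit, and 0.15 and 0.81 without the 3 libraries. EIF3E had 0.10 ± 0.39 and 0.05 ± 0.39, EIF3H had -0.24 ± 0.37 and -0.26 ± 0.37, and EIF3L had 0.27 ± 0.39 and -0.15 ± 0.38. Of the 11 tested subunits 0 passed in either comparison, with 6 log2 fold changes above 0 and 5 below in 12v against 8L, where 47.3% of all tested genes were above 0. In 16v against 8L 4 were above 0 and 7 below, where 52.6% of all tested genes were above 0.

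In the cap-binding group EIF4E2, a relative of eIF4E that binds the cap and is known for repressing translation, had 4.38, 8.83, 6.51 and 11.6 CPM at 16v, against 15.6, 42.0, 20.8 and 57.3 CPM at 8L. The groups did not overlap, though the gene had only 125 counts over the 12 liver libraries, summed over 4 transcripts that can hold the same reads. The log2 fold change was -2.07 ± 0.69 (adjusted p = 0.127) in 16v against 8L and -1.50 ± 0.70 (adjusted p = 0.274) in 12v against 8L. DESeq2 called it in 16v against 8L, with an adjusted p of 0.0229. With the score in the fit it was at -1.33 in 16v against 8L and -0.91 in 12v against 8L. EIF4E, the cap-binding protein itself, had 0.54 ± 0.37 and 0.48 ± 0.37. EIF4EBP1, which holds eIF4E and keeps it from the cap complex, had 46.8, 46.4, 68.8 and 27.2 CPM at 8L, 128, 100.3, 43.2 and 89.5 CPM at 12v and 70.1, 79.4, 83.4 and 71.0 CPM at 16v. At 16v all 4 libraries were above those of 8L, and at 12v replicate 3 was not. Its log2 fold change was 0.97 ± 0.40 (adjusted p = 0.234) in 12v against 8L and 0.69 ± 0.40 (adjusted p = 0.344) in 16v against 8L. The helicase EIF4A2 had 0.49 ± 0.31 and 0.28 ± 0.31, and its stimulating partners EIF4B and EIF4H had -0.86 ± 0.53 and 0.59 ± 0.43 in 12v against 8L. EIF4A3, a helicase of the exon junction complex, had -1.26 ± 0.82 and -1.41 ± 0.79, or -0.43 and -0.64 with the score in the fit. The scaffold EIF4G1 had 0.07 ± 0.44 and 0.24 ± 0.43, and EIF4G2, a scaffold without the eIF4E site, had -0.22 ± 0.28 and 0.17 ± 0.28. Of the 8 tested genes of the cap complex 0 passed in either comparison.

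At the start site, EIF1, which guards the choice of start codon, had 172, 148, 139.6 and 117 CPM at 8L, 247.7, 234, 323.7 and 126.7 CPM at 12v and 361, 231, 155 and 259.5 CPM at 16v. The groups overlapped by 1 library in each case. The log2 fold change was 0.68 ± 0.36 (adjusted p = 0.336) in 12v against 8L and 0.80 ± 0.36 (adjusted p = 0.218) in 16v against 8L, and 0.20 and 0.36 with the score in the fit. EIF1AX, the scanning factor eIF1A, had 74.5, 53.0, 35.2 and 36.1 CPM at 16v, against 17.8, 26.5, 29.2 and 34.4 CPM at 8L. These groups did not overlap, with a margin of under 1 CPM, and the log2 fold change was 0.86 ± 0.42 (adjusted p = 0.26). EIF2S1 and EIF2S2, the alpha and beta subunits of eIF2, had 0.02 ± 0.53 and -0.30 ± 0.46 in 12v against 8L and -0.07 ± 0.51 and 0.01 ± 0.45 in 16v against 8L. EIF5, which triggers GTP hydrolysis by eIF2, had 0.37 ± 0.29 and 0.39 ± 0.29, and EIF5B had -0.53 ± 0.63 and 0.44 ± 0.60. Of the 4 kinases of eIF2, EIF2AK3 (PERK, activated by stress of the endoplasmic reticulum) was the one with enough counts in liver, at 0.43 ± 0.73 and 0.54 ± 0.72.

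Without any threshold on p, 2 of the 38 genes had 12v libraries that did not overlap with 8L in liver, EEF2 and EIF3K, both below. That is 5.26%, against 12.4% of all tested genes without overlap in either direction and 7.02% below. In 16v against 8L there were 7 of 38, or 18.4%, against 21.6% of all tested genes: EEF2, EIF3D, EIF3K and EIF4E2 below, and EIF1AX, EIF4EBP1 and EIF5A above. The 4 below are 10.5% of the 38, against 11.7% of all tested genes, and the 3 above are 7.89%, against 9.89%.

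**Figure D2:**
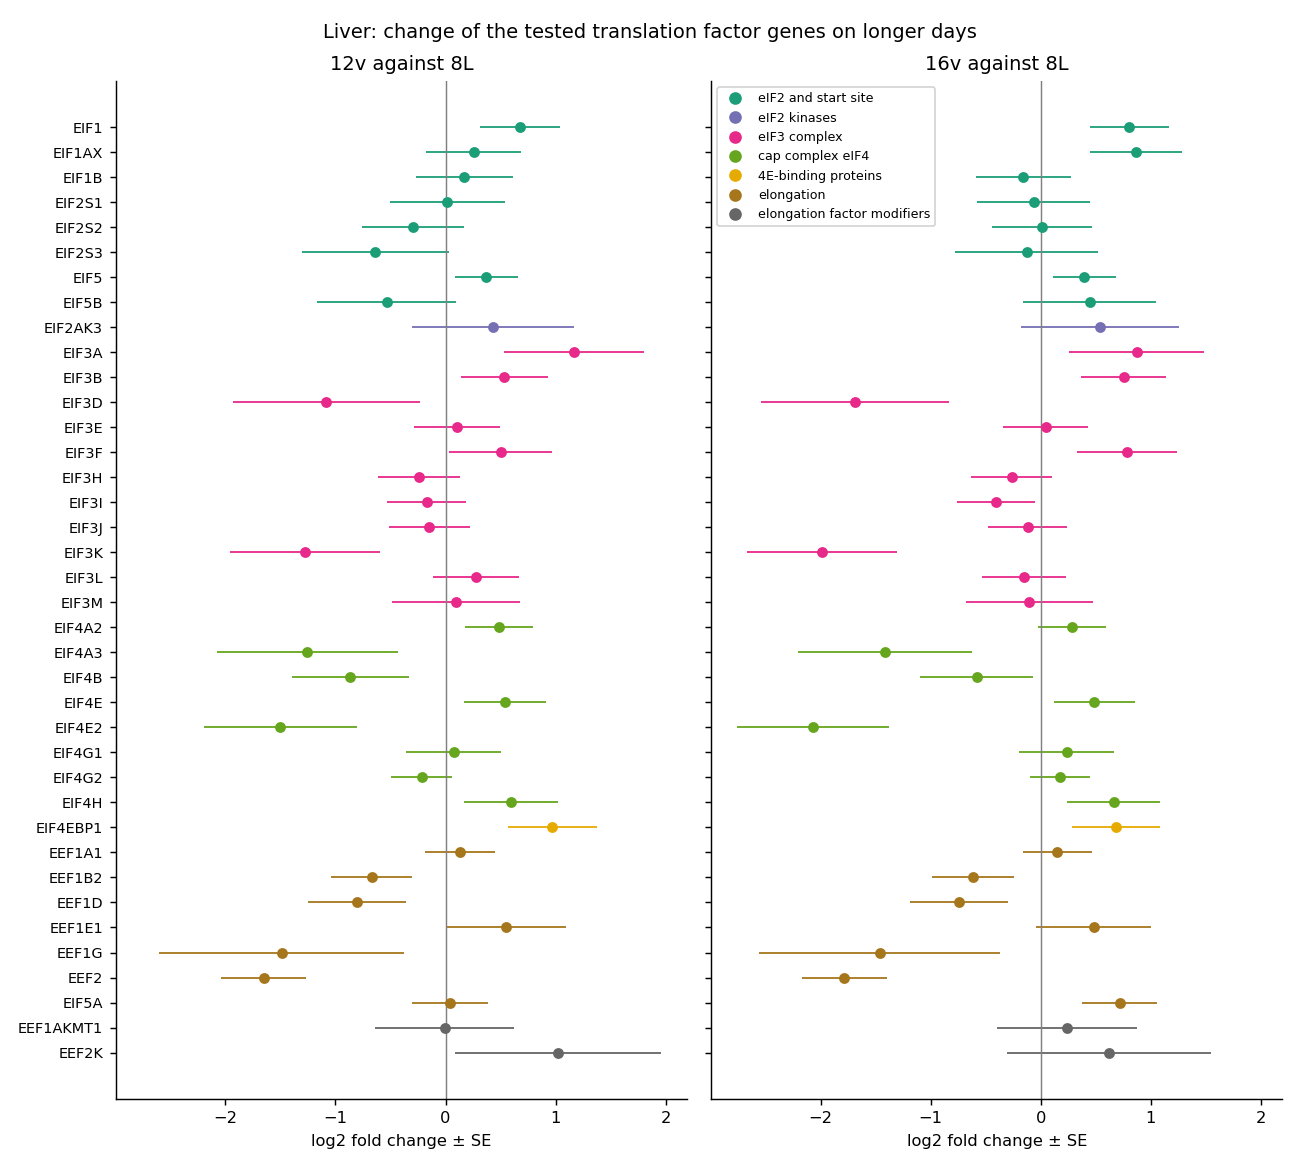
Log2 fold changes in liver of the 38 tested translation factor genes, 12v against 8L (left) and 16v against 8L (right); points are edgeR estimates, bars are 1 SE and colours mark the role of the gene. EEF2 stands at -1.65 and -1.78 with short bars, and the values of the other genes spread between -2.07 and 1.17.

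In 16v against 12v in liver, 0 of the 38 genes passed, where 0.0221% of all tested genes did. There were 0 of 38 at an unadjusted p under 0.05 as well, against 2.01% of all tested genes, and DESeq2 and limma-voom also called 0. The 3 smallest p belonged to EIF5A at 0.68 ± 0.34, EIF5B at 0.98 ± 0.63 and EIF1AX at 0.61 ± 0.43, with an adjusted p of 0.999 each. In liver 0 of the 38 genes had groups that did not overlap here, against 2.23% of all tested genes.

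In adipose tissue 0 of the 47 tested genes passed in any photoperiod comparison. Of all 6494 tested genes, 0.0154% passed in 12v against 8L, 0% in 16v against 8L and 0% in 16v against 12v. At an unadjusted p under 0.05 there was 1 gene of 47 in 12v against 8L, 0 in 16v against 8L and 2 in 16v against 12v, or 2.13%, 0% and 4.26%, against 4.96%, 6.68% and 4.71% of all tested genes. DESeq2 and limma-voom called 0 in each. The median log2 fold change of the 47 genes was 0.13 in 12v against 8L, beside -0.03 over all tested genes, and 0.06 in 16v against 8L, beside -0.06.

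EEF2 in adipose tissue had 222, 228, 202 and 233 CPM at 8L, 322, 244.7, 268 and 289 CPM at 12v and 210.0, 187, 335 and 239 CPM at 16v. All 12v libraries were above those of 8L, while those of 16v overlapped with both. The log2 fold change was 0.34 ± 0.25 in 12v against 8L and 0.15 ± 0.26 in 16v against 8L, with adjusted p of 1 and 0.963. EIF2AK1 (HRI, the eIF2 kinase that senses haem) had the smallest p in 12v against 8L. It had 27.2, 45.5, 85.4 and 29.9 CPM at 12v, against 20.5, 15.6, 27.1 and 17.7 CPM at 8L. The groups did not overlap, by a margin of under 1 CPM, and the log2 fold change was 1.22 ± 0.53 (adjusted p = 0.961). EIF2B4, a subunit of the factor that recharges eIF2, had 1.20 ± 0.56 (adjusted p = 0.98), and EIF1 had 0.49 ± 0.28. EIF4H had 111, 115, 108 and 104 CPM at 12v, against 161, 118, 135 and 134 CPM at 8L, which also did not overlap. These 3 genes without overlap, EEF2, EIF2AK1 and EIF4H, are 6.38% of the 47, against 5.07% of all tested genes.

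In 16v against 8L in adipose tissue, EIF4G2 had 280.0, 210.4, 290.1 and 322 CPM at 16v, against 326, 375, 445 and 339 CPM at 8L. All 4 libraries of 16v were below those of 8L, with a log2 fold change of -0.42 ± 0.24 (adjusted p = 0.807). It was the only gene of the 47 without overlap, 2.13%, against 5.05% of all tested genes. EIF2B4 had 1.00 ± 0.59. In 16v against 12v the smallest p belonged to EEF2K, EIF2AK1 and EIF4E, each with an adjusted p of 0.993. EEF2K had 16.3, 0, 36.3 and 28.3 CPM at 16v, against 0, 0, 14.2 and 0 CPM at 12v. Its log2 fold change of 3.17 ± 1.26 rests on adipose 12v replicate 3, without which 12v has no counts and no fold is given. That library held 5 counts of EEF2K, summed over 5 transcripts that can hold the same reads. EIF2AK1 had -1.23 ± 0.55, which was -1.94 without adipose 16v replicate 1 and -0.80 without adipose 12v replicate 3. EIF4E had 0.91 ± 0.42. EIF4E3, another relative of eIF4E, was the one gene without overlap there, or 2.13%, against 3.05% of all tested genes.

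EEF1A2 encodes the eEF1A form that in mammals replaces EEF1A1 in muscle, heart and neurons. In adipose tissue it had 76.4, 0, 9.02 and 0 CPM at 8L, 0, 166, 8.54 and 0 CPM at 12v and 0, 105, 0 and 1037 CPM at 16v. In each group 1 library held most of the signal and at least 1 was at 0. The log2 fold change in 16v against 8L was 3.74 ± 2.13 (adjusted p = 0.807), and without adipose 16v replicate 4 it was -0.29, so that 1 library set its direction. The summed level of the skeletal muscle markers in the same libraries, in the same order, was 3880, 406, 195.5 and 22.4 CPM at 8L, 7.43, 9050, 1131 and 225.5 CPM at 12v and 21.2, 6090, 14.5 and 65280 CPM at 16v. The 4 libraries with the most EEF1A2 were the 4 with the highest sum. Of the 8 markers on that list 6 were listed, and the sum was mostly TNNT3, the fast skeletal troponin T, with 0 to 51660 CPM. ACTA1, skeletal actin, was at 4.88 to 5852 CPM, and MB, myoglobin, at 0 to 289 CPM. In liver, where EEF1A2 was not listed, the sum was 0 to 18.6 CPM. The part of muscle RNA in the EEF1A2 values was not tested. EEF1A1 and EEF1A2 are close relatives whose reads the counting could have split, and the 3 transcripts of EEF1A2 summed to 2.96 times the largest.

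**Figure D3:**
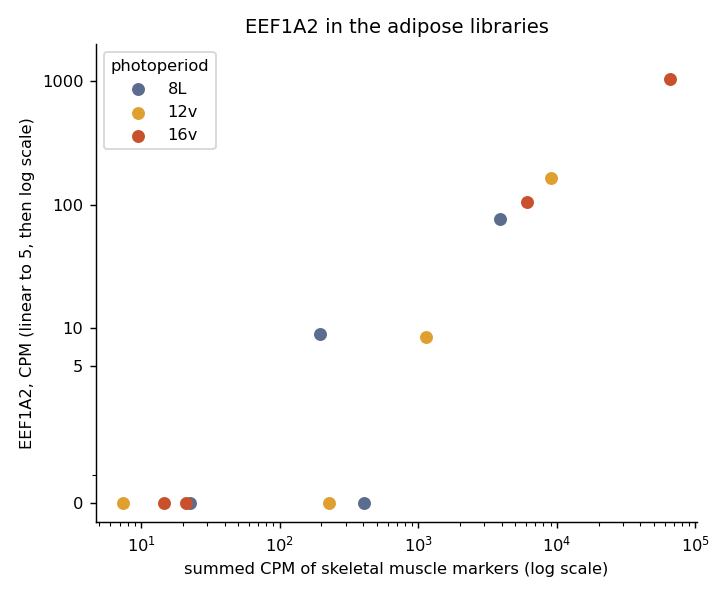
EEF1A2 in the 12 adipose libraries (vertical axis, CPM, linear up to 5 and logarithmic above) against the summed CPM of the skeletal muscle markers (horizontal axis, log scale); each point is a library, coloured by photoperiod. The library at 1037 CPM of EEF1A2 also has the highest marker sum, 65280 CPM.

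Whether the liver and adipose responses differed was tested directly as an interaction in 1 fit of all 24 libraries. Of 48 tested genes, 0 passed for 12v against 8L, where 0.478% of all 7107 tested genes did, 0 for 16v against 8L, where 0.295% did, and 0 for 16v against 12v, where 0% did. At an unadjusted p under 0.05 there were 2, 1 and 3 genes, or 4.17%, 2.08% and 6.25%, against 10.9%, 15.2% and 5.5% of all tested genes. DESeq2 called 1, 1 and 0 genes, and in the first 2 comparisons it called 184 and 365 of all 7107 tested genes. With limma-voom 1, 0 and 0 were called, and for 12v against 8L it called 35 of all 7107. EEF2 had the smallest p of the 48 in both comparisons with 8L: the liver minus adipose difference was -1.95 ± 0.50 (adjusted p = 0.0845) in 12v against 8L and -1.72 ± 0.50 (adjusted p = 0.117) in 16v against 8L. Over the alternatives run its adjusted p lay between 5.46e-05 and 0.533 for 12v and between 4.92e-05 and 0.528 for 16v, and the difference was negative in all of them. In 12v against 8L, EIF2B3 followed with -2.31 ± 1.07 and EIF4E with 1.17 ± 0.59. In 16v against 8L, EIF3B, a core eIF3 subunit, had 1.07 ± 0.52 and EIF4G2 had 0.80 ± 0.40. In 16v against 12v, EIF2AK1 had 2.91 ± 1.28, EIF4E3 had -2.31 ± 1.07 and EEF2K had -3.41 ± 1.59. EIF2B3, EIF2AK1 and EIF4E3 were too sparse for a test in liver alone and entered this fit through their adipose counts. In the liver 12v libraries EIF2B3 had 1, 0, 1 and 4 counts, EIF2AK1 had 0, 2, 0 and 5, and EIF4E3 had 4, 6, 0 and 10. The liver side of these values thus rests on few counts. Without adipose 12v replicate 3, EEF2K had no counts in adipose tissue at 12v.

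More of these genes passed between the tissues than between photoperiods. On the mean of the 3 photoperiods 21 of the 48 tested genes passed in liver against adipose tissue, 43.8%, where 55.1% of all 7107 tested genes did. Of these, 11 were higher in liver, or 22.9%, against 23.9% of all tested genes. The other 10 were lower, or 20.8%, against 31.2% of all tested genes. Among these, EIF4G3, EIF4ENIF1, EIF2B4, EIF4EBP2 and EIF2AK1 were too sparse for a test in liver alone. They entered this comparison through their adipose counts, so the filter itself favoured a lower value in liver for them. The direction of such a comparison rests on the scaling of 2 different tissues. The median log2 difference of all tested genes was -0.29 with TMM scaling, -0.59 with relative log expression scaling and -0.90 with library size alone. The plot of tissue differences therefore gives each gene relative to the median of -0.29, as does the text for EEF1A1, EIF4E, EIF4B and EEF2. Without adipose 12v replicate 1 that median was -0.70. The 48 genes had a median of 0.09, and 34 of them lay above the median of all genes, which by definition divides all genes evenly. With the other scalings the split was 6 higher and 14 lower (relative log expression) and 3 higher and 21 lower (library size alone). Called in one direction under all 3 scalings were 13 genes, of which 3 were higher (EEF1A1, EIF4E and EEF2K) and 10 lower. The other scalings moved the median further below 0, so this check is strict only for genes higher in liver.

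EEF1A1 had the smallest p of the higher genes. In liver it had 1650 to 4037 CPM with a median of 2948 CPM on the common scale, against 783 to 1649 CPM with a median of 1371 CPM in adipose tissue. On that scale the lowest liver library was just above the highest adipose library, and liver was above adipose tissue in 11 of 11 birds. Both depend on the scaling, and the count of birds was not made over all genes. The log2 difference was 1.18 ± 0.18 (adjusted p = 9.75e-06), or 1.47 relative to the median of all genes. EIF4E had 27.6 to 92.5 CPM with a median of 64.0 CPM in liver, against 11.8 to 68.5 CPM with a median of 28.5 CPM in adipose tissue. Its libraries overlapped. On the common scale liver was above adipose tissue in 11 of 11 birds, but this too depends on the scaling. As a share of the total count, liver was lower at 8L replicates 1, 2 and 3 and at 16v replicate 2. At 8L replicate 2 EIF4E had 15 of 526837 counts in liver, against 51 of 1389063 in adipose tissue. The log2 difference was 1.23 ± 0.24 (adjusted p = 0.000173), 1.52 relative to the median. With library size alone it was 0.62 (adjusted p = 0.0229). EEF2K had 0 to 100.5 CPM in liver, against 0 to 29.9 CPM in adipose tissue, and its log2 difference was 2.20 ± 0.65 (adjusted p = 0.00628). It rests on few reads: the counts were summed over 5 transcripts, the largest of which held 40 counts in liver and 21 in adipose tissue. Without adipose 12v replicate 1, EIF4E was at 0.80 and still called. Without adipose 12v replicate 3, EEF2K had no counts in adipose tissue at 12v, and no fold is given.

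The other 8 genes were called higher in liver with TMM scaling but not under every scaling. On the common scale EIF3I had 72.7 to 147 CPM in liver, against 19.6 to 70.4 CPM in adipose tissue. Again there was no overlap, with liver above in 11 of 11 birds, but both depend on the scaling. As a share of the total count, liver was lower at 8L replicates 1 and 4, 12v replicate 4 and 16v replicate 3. At 8L replicate 1 EIF3I had 30 of 525035 counts in liver, against 74 of 923031 in adipose tissue. EEF1A1 and EIF3I were the 2 genes of 48 without overlap between the tissues on the common scale, 4.17%, against 10.5% of all tested genes. The log2 difference of EIF3I was 1.01 ± 0.21 (adjusted p = 0.000284), and it was 0.43 (adjusted p = 0.0823) with library size alone. EIF1 had 138 to 469 CPM in liver, against 95.6 to 219 CPM in adipose tissue, with a log2 difference of 0.90 ± 0.19 (adjusted p = 0.000342) and of 0.32 (adjusted p = 0.195) with library size alone. EIF4EBP1 had 31.9 to 156 CPM in liver, against 19.6 to 58.8 CPM in adipose tissue, with 1.09 ± 0.23 (adjusted p = 0.000375) and 0.48 (adjusted p = 0.0534) with library size alone. The sign of another 4 turned with library size alone: EIF5 at 0.58 ± 0.17, EIF5A at 0.60 ± 0.20, EIF4A2 at 0.53 ± 0.18 and EIF1AX at 0.52 ± 0.22, against -0.01, -0.01, -0.06 and -0.07 with library size alone. EIF2AK3 was called at 1.07 ± 0.44 (adjusted p = 0.0446). Without adipose 12v replicate 1, EIF5, EIF5A, EIF4A2, EIF1AX and EIF2AK3 were no longer called, at 0.18, 0.19, 0.15, 0.15 and 0.67. EIF3I, EIF1 and EIF4EBP1 stayed called without that library, at 0.59, 0.51 and 0.69. EIF1AX lost its call with 18 of the 24 libraries left out singly, and EIF2AK3 with 16 of them.

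The 10 genes lower in liver kept their direction and call under the 3 scalings, though not under every other alternative. The other scalings move values further down in liver, so a gene called lower with TMM scaling could hardly lose its call there. The scalings are therefore no test of these 10 calls. EIF4B, which helps the helicase eIF4A, had 9.21 to 66.4 CPM with a median of 38.9 CPM in liver, against 53.2 to 274 CPM with a median of 75.5 CPM in adipose tissue. It was lower in liver in 11 of 11 birds, with a log2 difference of -1.14 ± 0.29 (adjusted p = 0.00182), -0.85 relative to the median of all genes. Its sum ran over 7 transcripts and was 6.72 times the largest in liver and 7 times in adipose tissue, the largest held 32 counts in liver and 115 in adipose tissue, and with 1 transcript per gene EIF4B had too few counts for a test. EIF4A3 had 0 to 35.3 CPM in liver, against 28.4 to 48.9 CPM in adipose tissue. It too was lower in liver in 11 of 11 birds, at -1.18 ± 0.32 (adjusted p = 0.00394). EIF5B had 0 to 54.0 CPM in liver, against 19.6 to 114 CPM in adipose tissue, was lower in 10 of 11 birds and had -1.10 ± 0.30 (adjusted p = 0.00372). EIF3D had 0 to 87.4 CPM in liver, against 57.0 to 122 CPM in adipose tissue, at -1.26 ± 0.37 (adjusted p = 0.00586).

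EEF2 was lower in liver on the mean of the photoperiods, at -0.69 ± 0.20 (adjusted p = 0.00659), or -0.40 relative to the median of all genes. Without adipose 12v replicate 1 it was at -1.06, beside a median of -0.70 over all genes. On the common scale it had 193 to 324 CPM in liver at 8L, against 170.2 to 191 CPM in adipose tissue at 8L. At 12v it had 36.9 to 152 CPM in liver, against 208 to 271 CPM in adipose tissue. At 16v it had 65.3 to 117 CPM in liver, against 156 to 276 CPM in adipose tissue. On that scale the lowest liver library at 8L lay just above the highest adipose library, at 193 against 191 CPM. With library size alone they overlapped at 8L, with 169 to 232.6 CPM in liver, against 192 to 249 CPM in adipose tissue, so that their order there depends on the scaling. At 12v and 16v every liver library was below the adipose libraries of the same photoperiod with both scalings.

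The remaining genes lower in liver also had thin or shared counts. All of them passed the filter on counts through adipose tissue only, so their calls are given as values and not as support. EIF4G3, a scaffold related to eIF4G1, had a log2 difference of -3.36 ± 0.87 (adjusted p = 0.00243), but its sum ran over 25 transcripts, and the largest held 5 counts in the liver libraries together and 45 in the adipose ones. EIF4ENIF1, which carries eIF4E into the nucleus and into processing bodies, had -1.78 ± 0.56 (adjusted p = 0.00983) over 6 transcripts, the largest with 13 counts in liver and 60 in adipose tissue. EIF2B4 had -1.48 ± 0.54, EIF4EBP2, another 4E-binding protein, had -0.90 ± 0.33, and EIF2AK1 had -1.31 ± 0.51. Without the 4 libraries that stood apart these 3 lost their call (adjusted p of 0.0942, 0.0532 and 0.113), while 18 of the 21 genes kept theirs. Without liver 12v replicate 4, EIF2B4 had no counts in liver at 12v. Without liver 16v replicate 2, EIF4G3 had no counts in liver at 16v, and no fold is given for either case. With single libraries left out, 14 of the 21 genes were called each time. With the bird as a block, 14 of the 21 genes stayed called in the same direction. The 7 that did not were EIF1AX, EIF4A2, EIF5, EIF5A, EIF2AK3, EIF4EBP2 and EIF2AK1.

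**Figure D4:**
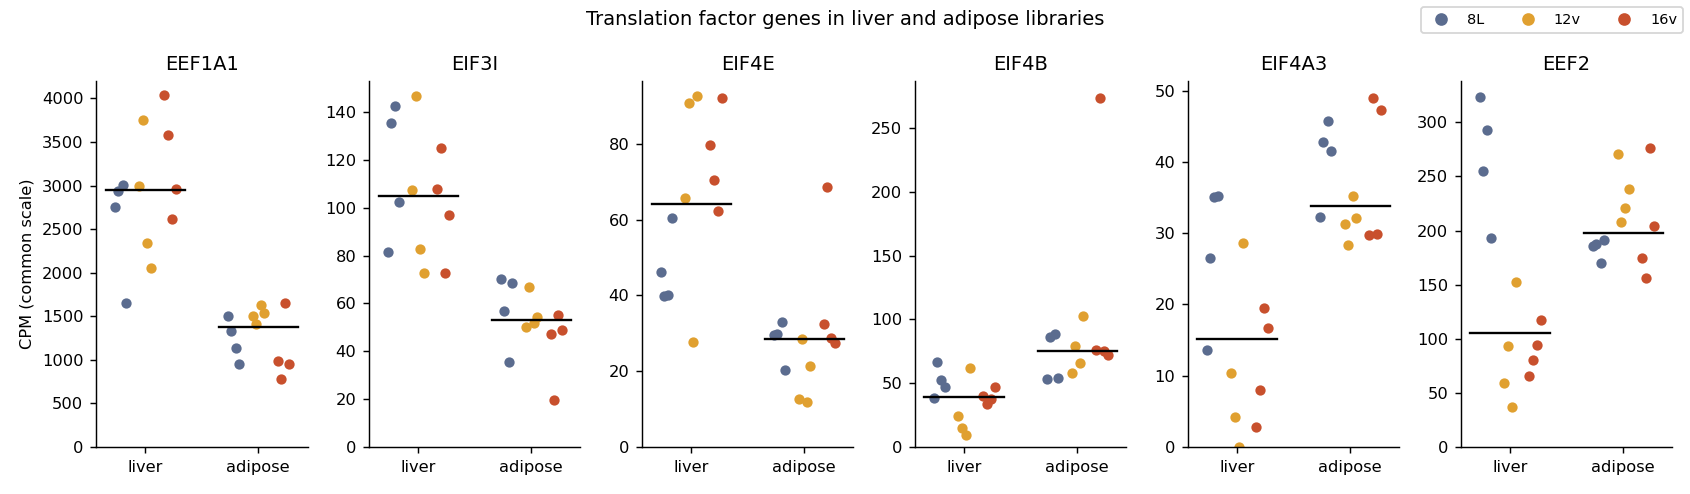
CPM on the common scale of 6 translation factor genes in the 12 liver libraries (left in each panel) and the 12 adipose libraries (right); points are libraries coloured by photoperiod and bars are medians. On this scale EEF1A1 and EIF3I do not overlap between the tissues. For EEF2 the 12v and 16v liver points lie below the adipose points of the same photoperiod. The order of EEF2 at 8L and the lack of overlap of EEF1A1 and EIF3I depend on the scaling.

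By role, the counts of called genes depended on the scaling. Of all tested genes 23.9% were higher in liver and 31.2% lower with TMM scaling, 19.9% and 39.8% with relative log expression scaling, and 16.7% and 47.8% with library size alone. Of the 9 tested start-site factors 3 were higher and 1 lower with TMM scaling, 1 and 2 with relative log expression scaling, and 0 and 3 with library size alone. Of the 12 tested eIF3 subunits, these counts were 1 and 1, then 1 and 3, then 0 and 6. Of the 10 tested genes of the cap complex they were 2 and 3, then 1 and 4, then 1 and 6. Of the 7 tested genes of elongation, EEF1E1 included, they were 2 and 1, then 1 and 1, then 1 and 2. EIF3E had a log2 difference of 0.21 ± 0.21, EIF3H of 0.25 ± 0.22, EIF3L of 0.04 ± 0.21 and EIF3A of -0.18 ± 0.25, none of which passed. Of the 3 tested 4E-binding proteins 1 was higher with TMM scaling but not with library size alone, and 2 were lower with each scaling. Of the 3 tested eIF2 kinases 1 was higher with TMM scaling alone, and 1 was lower with each scaling. Panel genes that did not pass were EIF2S1 at -0.34 ± 0.25, EIF2S2 at 0.39 ± 0.27, EIF6, which keeps free large subunits from joining, at 0.49 ± 0.40, and EIF4G1 at 0.25 ± 0.23. EIF4G2 was at -0.05 ± 0.16, EIF4H at 0.07 ± 0.21, EEF1B2 at 0.56 ± 0.25, EEF1D at -0.16 ± 0.26, EEF1G at -0.24 ± 0.53 and EIF2AK2 (PKR, which senses double-stranded RNA) at 0.37 ± 0.76.

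**Figure D5:**
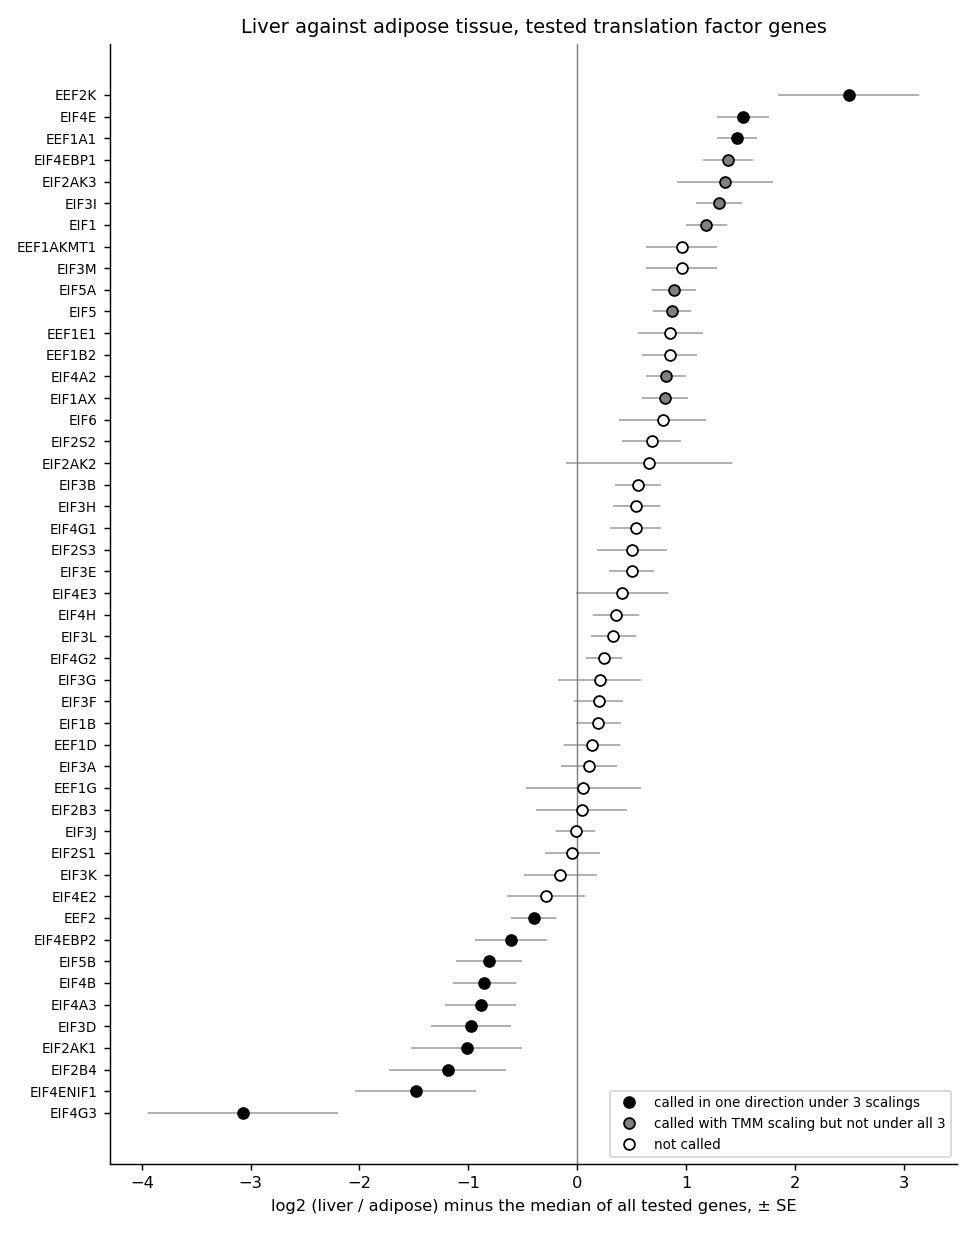
Log2 difference of liver and adipose tissue minus the median of all tested genes (-0.29) for the 48 tested translation factor genes, with bars of 1 SE. Black points are the 13 genes called in one direction under all 3 scalings, grey points the other 8 called with TMM scaling, and open points the genes not called. The other scalings move values further down in liver, so black is a strict mark only for genes higher in liver.

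Most of these genes varied less between birds than the tested genes at large, without matching for level. The median within-group standard deviation on the log2 scale was 0.53 over the 38 genes in liver, against 1.06 over all tested genes, and 0.47 over the 47 genes in adipose tissue, against 0.92. It was below the median of all genes for 30 of 38 in liver and 36 of 47 in adipose tissue. EIF4G2 at 0.22 and EIF5 at 0.28 varied least in liver, and EIF3E at 0.16 and EIF3J at 0.18 in adipose tissue. EEF1A2 at 3.44 and EIF4G3 at 2.49 varied most in adipose tissue, and EEF1G at 2.14 in liver. Each of these had libraries at 0 CPM there. The spread on this scale can depend on the level of a gene. Genes of a like level were not compared, so the part of level was not tested.

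Genes around the factors were read from lists. In the human, the mRNAs of ribosomal proteins and of several of these factors begin with a pyrimidine tract that makes their translation respond to mTOR; the 10 such factors here had a median log2 fold change in liver of -0.45 in 12v against 8L and -0.42 in 16v against 8L, beside -0.08 and 0.07 over all tested genes, with 0 of 10 called. Without the 3 libraries that stood apart in ribosomal protein genes the medians were -0.12 and -0.27, beside -0.03 and 0.02 over all tested genes. With the score in the fit they were 0.04 and -0.04, beside 0.07 and 0.20. In adipose tissue the medians were 0.19 and -0.02. LARP1, which binds that tract, had 2.00 ± 0.52 (adjusted p = 0.0975) in 12v against 8L and 1.73 ± 0.51 (adjusted p = 0.0991) in 16v against 8L in liver, in a list of poly(A) and cap regulators where 0 of 8 tested genes passed. RHEB, the small GTPase that switches on mTOR, had 1.47 ± 0.27 in 12v against 8L (adjusted p = 0.0394), 1 of 2 tested genes of its list, where 0.331% of all tested genes passed. It passed under 8 of 23 alternatives, with an adjusted p of 5.22e-07 to 0.216 and a log2 fold change of 1.21 to 1.79. It had 1.06 ± 0.27 (adjusted p = 0.0645) in 16v against 8L. Of the integrated stress response, which phosphorylated eIF2 sets off, ATF4 had -1.98 ± 0.63 (adjusted p = 0.151) and -2.54 ± 0.63 (adjusted p = 0.0642), and ASNS, asparagine synthetase, had -2.97 ± 1.25 and -1.96 ± 1.12, with 0 of 2 tested genes called. Of the termination and recycling factors 0 of 5 passed, and ETF1, which reads stop codons, had 0.94 ± 0.45 and 0.92 ± 0.44. Between the tissues, ETF1 at 0.92 ± 0.22 and ABCE1, which splits ribosomes after termination, at 0.88 ± 0.26 were higher in liver with TMM scaling (adjusted p of 0.000919 and 0.00647), but at 0.33 and 0.30 with library size alone neither passed. Counts were too sparse for most genes of 3 other lists in liver. Of the enzymes that modify eIF5A and eEF2 1 could be tested, of the mitochondrial translation factors 3 and of the cytosolic tRNA synthetases 2, and 0 of these passed in either comparison with 8L.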

How the data were processed

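Nanopore PCR-cDNA libraries (SQK-PCB109 kit) of polyadenylated RNA were sequenced from 12 livers and 12 adipose samples, per the labels' protocols. The deposited tables hold expected counts per transcript, made by the authors with minimap2 and Salmon per the submitters' processing notes. For their versions, the genome build and the annotation: not given in the sources used here. Of the values, 99.5% (liver) and 99.6% (adipose) were whole within 1e-06. They were rounded and summed per gene. Reads matching more than 1 transcript of a gene seem to enter each, which overstates genes with many transcripts (for the translation factors the median ratio of the sum to the largest transcript was 1.04 in liver and 1.41 in adipose tissue). The largest ratio was that of EIF4G3, 19.6 in liver and 23.3 in adipose tissue. EIF4G1 had 16.9 and 16.4, and EEF1D had 8.02 and 8.59.

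Tests used edgeR 4.0.16 (TMM, filterByExpr with a minimum count of 10 and total of 15, robust quasi-likelihood fit) in R 4.3.3, Benjamini-Hochberg adjustment over all tested genes and a threshold of 0.05. The 12 libraries of a tissue shared 1 fit (9 residual degrees of freedom), as did all 24 (18). CPM values use the TMM factors of the tissue for photoperiods and of both tissues for the tissue comparison. DESeq2 1.42.0, limma-voom (limma 3.58.1) and other settings were alternatives. The fits were tested on simulated data.

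Within a tissue, libraries are separate birds by their labels, and p-values measure the spread between them, part of which may be technical. The main fit of all 24 libraries treated them as independent. Only the alternative with the bird as a block used the pairing of the tissues. The animal numbers paired 11 liver and adipose libraries, though paired libraries did not deviate together (correlations of -0.027 to 0.06). Liver and adipose 16v replicate 4 carry different animal numbers. The genes and lists were chosen with earlier results of these data known. Values are printed for members past the threshold, otherwise for the 3 with the smallest p, and for a panel by role; between tissues for the 6 higher and 6 lower with the smallest p and the panel. Other genes are named where groups did not overlap, or to complete a role, chosen after their values were seen. EIF4A1, EIF5A2 and EIF3C are not analysed here.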

Additional observations from a re-analysis of the deposited data

Results flagged for a closer look

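In 12 of 162 groups of 4 libraries, the highest or lowest library lay far from the other 3 by Dixon's criterion. For normally distributed values chance gives about 1 group in 20. Groups with few counts or many zeros need not keep to that rate, so the 12 groups are not read against it. In adipose tissue EEF1A2 met it in all 3 photoperiods, at 76.4 CPM in 8L replicate 1 (others 0 to 9.02), 165.8 CPM in 12v replicate 2 (others 0 to 8.54) and 1037 CPM in 16v replicate 4 (others 0 to 105). These are libraries with high skeletal muscle marker sums; the part of muscle RNA was not tested.

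Adipose 16v replicate 2, which has 72716 counts and stood apart in ribosomal protein genes, held 3 of the others: EIF4B at 327.3 CPM (others 84.8 to 91.4), EIF4E at 81.8 CPM (others 32.3 to 39.1) and EIF5A at 58.5 CPM (others 109 to 116). These values rest on few counts in that library: 28 for EIF4B, 7 for EIF4E and 5 for EIF5A. Those of EIF4B were summed over 7 transcripts that can hold the same reads. EIF2AK3 was at 0 CPM in adipose 16v replicate 3 (others 11.7 to 13.02). EEF2K was at 14.2 CPM in adipose 12v replicate 3, with the other 3 libraries at 0. That value was 5 counts, summed over 5 transcripts that can hold the same reads. With the other 3 at 0, any count would meet the criterion.

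At 8L, EEF1B2 was at 554.8 CPM in liver replicate 1 (others 857 to 873). In adipose tissue at 8L, EIF2S2 was at 83.0 CPM in replicate 2 (others 55.9 to 57.8), EIF3E at 138 CPM in replicate 1 (others 125 to 126) and EIF4G1 at 193.8 CPM in replicate 1 (others 371 to 403). The counts of EIF4G1 were summed over 17 transcripts that can hold the same reads.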

How the results depend on the processing

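Of the 6 photoperiod comparisons, the count of 0 called genes moved only in liver. In 12v against 8L it was 1 under the filter of a mean of 20 counts, DESeq2 and 1 transcript per gene, and 0 to 1 with single libraries left out (1 without liver 12v replicate 4). In 16v against 8L it was 1 under relative log expression scaling, library size alone, the stricter filter, limma-voom, the 2 groups alone and without the 3 liver libraries that stood apart, 3 under DESeq2 and 2 with 1 transcript per gene; leaving out single libraries gave 0 to 1 (1 without liver 12v replicate 1, 3 or 4). The interaction count for 12v against 8L was 1 under relative log expression scaling, the stricter filter, limma-voom, DESeq2 and 1 transcript per gene, and 0 to 1 with single libraries left out (1 without liver 12v replicate 4). For 16v against 8L it was 1 under the stricter filter, DESeq2, 1 transcript per gene, that with library size alone (chosen after seeing the data) and without the 4 libraries that stood apart. Over all genes the interaction counts for 12v, in the order of settings above, were 64 of 7107, 55 of 3358, 35 of 7107, 184 of 7107 and 73 of 4389. Without liver 12v replicate 4 the count was 103 of 7586. For 16v they were 56 of 3358, 365 of 7107, 209 of 4389, 180 of 4389 and 92 of 7993. Over all genes in liver, DESeq2 called 365 of 4532 in 12v against 8L and 546 of 4532 in 16v against 8L. With 1 transcript per gene these counts were 142 and 477 of 2601, and with the stricter filter 89 and 132 of 2444. In 16v against 8L relative log expression scaling called 33, library size alone 89 and limma-voom 219 of 4532. The 2 groups alone gave 307 of 3938, and the fit without the 3 libraries gave 125 of 5541. Without liver 12v replicate 1, 3 or 4 these were 93 of 5036, 73 of 5116 and 209 of 4911. In 12v against 8L, leaving out liver 12v replicate 4 gave 291 of 4911. EEF2 was among the translation factors called in each of the settings above. The cause was not tested. In liver against adipose tissue 13 genes were called with 1 transcript per gene, where 37 of the genes could be tested. At that setting 3144 of all 4389 tested genes were called. With single libraries left out 18 to 23 of the factors were called, beside 3861 to 4409 of all genes.

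Among called genes and those with the smallest p, directions that turned were EEF1D in liver 12v against 8L (0.047 with the ribosomal protein score), EEF1A2 in adipose 16v against 8L (-0.295 to 7.44 with single libraries left out), and, with library size alone and with that on 1 transcript per gene, EIF5 (-0.009 and -0.115), EIF5A (-0.005 and -0.186), EIF4A2 (-0.063 and -0.115) and EIF1AX (-0.069 and -0.135). The cause was not tested. Counts over all genes moved more: those called in liver 16v against 8L were 36, and 4 to 546 under the other settings.

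Replicate numbers name different birds across photoperiods. Same-numbered libraries had correlated deviations of -0.156 to 0.241 in liver, where 5 of 12 libraries correlated best with their own number, and -0.122 to 0.052 in adipose tissue, where 0 did. With the replicate block the count stayed 0 in the 6 comparisons, and EEF2 in liver had an adjusted p of 0.112 (12v) and 0.0673 (16v). With the bird as a block 14 genes were called between the tissues, and 0 in each interaction. Depth limits the sparse genes: in the 2 shallowest libraries 36 and 43 of the factors had a count.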
